A study of Homo sapiens with 24 samples.

Results

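SJSA-1 is an established human osteosarcoma cell line, grown from a tumour of bone. The data described here are its response to 25 nM THZ2, the lowest dose of the study, measured over 6 h against DMSO, the solvent. The arrays were chosen by their titles and number 6 of 24, with 3 of SJSA-1 cells given 25 nM THZ2 and 3 of SJSA-1 cells given DMSO. The study also treated SJSA-1 with 100 and 400 nM THZ2, and treated U2-OS, another human osteosarcoma line, with DMSO and the same doses, again for 6 h and with 3 arrays per group. All cells were kept in the same serum-containing medium, which was replaced by medium with THZ2 or DMSO at the start. Each array is an Affymetrix PrimeView chip, which reads a transcript with 1 or more probe sets and gives 1 intensity per probe set. The labels do not say whether the 3 arrays of a group came from separate cultures, so the p-values below measure the spread between arrays, which may be technical, and having 3 arrays a group is what sets the precision.

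THZ2 binds covalently to CDK7, the kinase that works with cyclin H (CCNH) and MNAT1 inside the general transcription factor TFIIH. CDK7 phosphorylates the C-terminal tail of RNA polymerase II soon after a transcript is started, and it also activates the kinases that drive the cell cycle. THZ1, a close relative of THZ2, is known to bind CDK12 and CDK13 as well, which phosphorylate the same tail later, while genes are being elongated. The array reads the amount of RNA present, not its synthesis, and RNAs with a short lifetime are those in which a change in synthesis shows earliest.

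The array medians of the 12 SJSA-1 arrays lay between intensities of 23.4 and 25.5. DMSO replicate 1 stood apart, since its log2 values correlated at 0.995 with those of 25 nM replicate 1, and at 0.993 with those of either other DMSO array. The mean log2 intensity of the poly-A spike-in probe sets was 7.06, 7.06 and 7.01 on the 25 nM arrays, against 6.54, 7.01 and 7.33 on the DMSO arrays, so the groups overlapped on this scale but the DMSO arrays were spread more widely. The SJSA-1 arrays also scattered more around their group means than the U2-OS arrays, with a median residual SD of 0.114 against 0.0725 (log2). A model on all 24 arrays therefore takes too small a spread for SJSA-1, so results of the same model on the 12 SJSA-1 arrays are given beside the leading counts and many of the genes, and a count with none beside it comes from the 24 arrays. The deposited extraction protocol names a brain tissue and a kit, whereas the treatment protocol names these cells and TRIzol. Of 18 osteoblast lineage genes 12 reached the intensity of the low-value filter, 12.72, in both groups, and among them SPARC, a bone matrix protein, was at 4393 ± 201 with 25 nM THZ2 and 4558 ± 174 with DMSO (SD, n = 3). IBSP was at 5.50 ± 0.50 with THZ2 and 5.42 ± 0.18 with DMSO. Like IBSP, the genes SP7, SPP1, DLX5, DLX3 and PHEX stayed under the filter intensity in both groups. Of 19 nervous tissue genes 9 reached it, with summed intensities of 264 to 330 with THZ2 and 269 to 287 with DMSO, and the brightest of them was GFAP, at 39.8 ± 6.4 with THZ2 and 35.7 ± 3.2 with DMSO, while AQP4, at 4.26 ± 0.14 with THZ2 and 4.09 ± 0.44 with DMSO, MAG, MBP and NEFL stayed under it in both groups. Of 12 blood and immune genes 7 reached it, with sums of 231 to 278 with THZ2 and 238 to 263 with DMSO. HBB led them at 54.1 ± 12.4 with THZ2 and 48.2 ± 1.15 with DMSO, while the leukocyte gene PTPRC was at 3.50 ± 0.27 with THZ2 and 3.39 ± 0.27 with DMSO. Of 10 epithelial genes 9 reached it, with sums of 4239 to 4307 with THZ2 and 3615 to 4790 with DMSO. The epithelial cadherin CDH1, at 3.995 ± 0.23 with THZ2 and 3.49 ± 0.074 with DMSO, did not, whereas the keratins KRT8 and KRT18 were bright, at 1546 ± 55.3 with THZ2 against 1485 ± 231 with DMSO, and at 2476 ± 55.5 with THZ2 against 2597 ± 411 with DMSO.

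The comparison asks which transcripts differ after 6 h at the lowest dose given. Of 16178 genes tested, 1335 (8.25%) passed an adjusted p of 0.05, of which 319 (1.97% of all) rose and 1016 (6.28%) fell (limma on 24 arrays, Benjamini-Hochberg). With the 12 SJSA-1 arrays alone 569 (3.52%) passed, of which 107 (0.661%) rose and 462 (2.86%) fell, and 561 genes passed in both models, 104 of them up and 457 down. Without DMSO replicate 1 the 24-array model called 553 rises and 1332 falls, and 454 genes passed with and without that array in both models. The changes were small. Of the 1335, 1008 changed by under 0.5 on the log2 scale and 316 by 0.5 to 1, and 11 changed by 2-fold or more on the log2(intensity + 16) scale, 5 of them up and 6 down, against 43 with no pseudocount. The median log2 change was 0.38 among the risen genes, -0.40 among the fallen and 0.013 over all genes. In 1240 of the 1335 no treated array fell within the span of the DMSO values, whereas with no test at all 7.73% of genes had all treated arrays above and 9.85% all below. On arrays centred on the spike-ins only 103 genes passed, 8 up and 95 down, a split that leans further to falls than the 319 and 1016 of the deposited scaling. The spike-ins varied within groups, with means of 7.835, 8.9975 and 7.33 (log2) on the SJSA-1 arrays of 400 nM. Centring carries this spread into every gene and into the spread the model takes. It also used the mean of all 24 arrays, which lowers most SJSA-1 arrays before 16 is added. Fallen genes were brighter under DMSO than genes at large, with a median intensity of 124 against 51.7, and risen genes had a median of 71.6. The DMSO value is part of the change by which these genes were chosen, and the added 16 shrinks changes of dim genes. Part of this difference is therefore built into the choice.

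**Figure D1:**
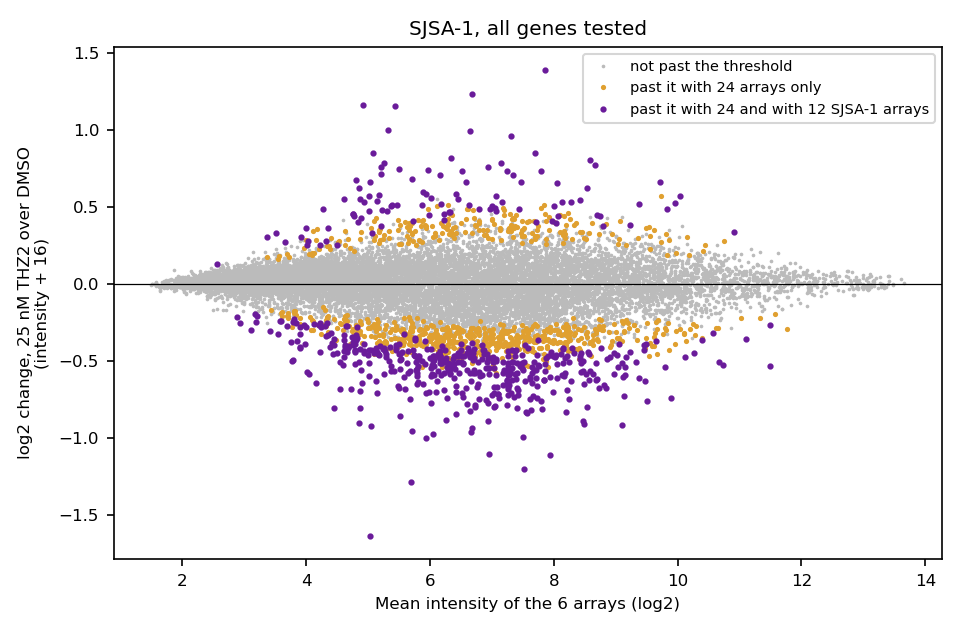
Log2 change of 25 nM THZ2 over DMSO in SJSA-1 (vertical, log2 of intensity plus 16) against the mean intensity of the 6 arrays (horizontal, log2), 1 point per gene. Most of the 16178 genes lie close to 0, the 561 genes past the threshold in both models are the outer ones, and falls (457) outnumber rises (104).

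The largest fall was that of ST6GALNAC5, a sialyltransferase that adds sialic acid to gangliosides on the cell surface. Its intensity was 7.73, 5.31 and 9.92 on the 25 nM arrays, against 62.2, 47.5 and 63.1 on the DMSO arrays. All treated arrays lay below the intensity of the low-value filter and far below every DMSO array, so the fall was at least 4.49-fold, with a log2 change of -1.64 ± 0.094 (SE; limma adjusted p = 4.77e-12). Changes are on the log2 scale of the intensity plus 16, which makes those of dim genes look smaller. ARHGEF39 stood at 23.3, 22.3 and 24.1 with THZ2 and at 68.1, 84.4 and 87.4 with DMSO, a change of -1.29 ± 0.089 (limma adjusted p = 1.61e-10). NABP1, a protein that binds single-stranded DNA, was at 114, 89.9 and 113 with THZ2 and at 258, 242 and 290 with DMSO, and changed by -1.20 ± 0.089 (limma adjusted p = 3.08e-10). In these genes the groups were separated by a wide gap. ASF1B, a chaperone that hands histones H3 and H4 to newly made DNA, gave 155, 137 and 156 with THZ2 and 309, 347 and 372 with DMSO, a change of -1.11 ± 0.085 (limma adjusted p = 4.43e-10). MOCS3, which carries sulfur for molybdenum cofactor synthesis and tRNA modification, gave 73.0, 60.1 and 86.2 with THZ2 and 162, 176 and 186 with DMSO, a change of -1.11 ± 0.11 (limma adjusted p = 5.65e-08). LIAT1, which binds the arginyltransferase ATE1, gave 36.3, 35.8 and 33.8 with THZ2 and 81.6, 97.7 and 81.6 with DMSO, a change of -1.002 ± 0.076 (limma adjusted p = 4.43e-10). These 6 are the genes lowered by 2-fold or more on that scale, and with no pseudocount 29 were.

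The next falls were under 2-fold on that scale, although in DET1, NLRC5, CCDC8, KRCC1, TIGD5, PYCR3 and CCDC9B the DMSO mean intensity was more than 2 times the THZ2 mean, from 2.13 times in CCDC9B to 2.78 times in CCDC8. DET1, a subunit of a ubiquitin ligase with COP1, changed by -0.97 ± 0.074, and CCDC9B by -0.997 ± 0.090. NLRC5, which switches on MHC class I genes, changed by -0.96 ± 0.069, with 34.3, 28.2 and 28.4 under THZ2 and 67.6, 71.5 and 82.7 under DMSO. TIGD5, derived from a transposase, and PYCR3, a reductase of proline synthesis, changed by -0.96 ± 0.10 and -0.94 ± 0.099. These genes overlap each other in the RefSeq annotation, so their probe sets may not be independent readings. KRCC1 changed by -0.92 ± 0.077, PAGR1, a partner of histone H3K4 methyltransferases, by -0.91 ± 0.11, and CCDC8, part of the 3M growth complex with CUL7, by -0.90 ± 0.076. SSU72, the phosphatase that removes phosphate from the polymerase II tail, was at 365, 393 and 375 with THZ2 and at 666, 787 and 729 with DMSO, a change of -0.91 ± 0.080. All 15 of these falls also passed with the SJSA-1 arrays alone (limma adjusted p at most 0.00060 there), and in 13 of the 15 every tested probe set of the gene lay below 0, although LIAT1, TIGD5 and NLRC5 have only 1.

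The largest rise was that of KMT5B, a methyltransferase of histone H4 lysine 20, on the probe set that represents it. Its intensity was 357, 322 and 355 with 25 nM THZ2, against 139, 116 and 111 with DMSO, with no overlap, a log2 change of 1.39 ± 0.095 (limma adjusted p = 1.57e-10). The representing probe set is the brightest over all 24 arrays, treated ones included, so a rise can help a probe set to be chosen. Under DMSO this one was at 122 ± 15.1, and 11739403_at of KMT5B, which changed by -0.46, was brighter at 140 ± 16.2. Another probe set was also brighter under DMSO in ADAMTS16, NDST1, VPS50 and ING3 below. SNORA3B, a small nucleolar RNA of the class that guides pseudouridylation, was at 144, 161 and 147 with THZ2 and at 54.9, 58.1 and 51.6 with DMSO, a change of 1.23 ± 0.088 (limma adjusted p = 2.10e-10). ADAMTS16, a secreted metalloprotease, was at 55.7, 41.6 and 47.2 with THZ2 and at 11.4, 13.5 and 12.8 with DMSO. Its DMSO values lay around the filter intensity, so the rise on this probe set was at least 3.67-fold, with a log2 change of 1.16 ± 0.085 (limma adjusted p = 2.61e-10). The other probe set of ADAMTS16, 11731890_a_at, did not rise. It was at 18.7 ± 1.61 with THZ2 and 20.4 ± 3.40 with DMSO, a change of -0.07 ± 0.065. USP45, a deubiquitinating enzyme, gave 61.4, 65.8 and 70.5 with THZ2 and 23.9, 20.4 and 17.8 with DMSO, a change of 1.16 ± 0.094 (limma adjusted p = 1.73e-09). Its other probe set, 11736769_a_at, was dimmer, at 9.68 ± 2.62 with THZ2 and 12.2 ± 3.52 with DMSO, and changed by -0.13 ± 0.068. ANKRD36, which has near-identical copies in the genome that a probe set may also read, changed by 1.004 ± 0.087. On the probe set that represents each of these genes, every treated array was above every DMSO array.

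SNORA26, another small nucleolar RNA, was at 118, 153 and 146 with THZ2, against 43.1, 74.0 and 71.0 with DMSO. Here DMSO replicate 1 was the lowest array, and without it the change was 0.80 rather than 0.995 (limma adjusted p = 5.8e-05 without it). NDST1, which sulfates heparan sulfate chains, changed by 0.96 ± 0.11, VPS50, a tethering factor of endosome recycling, by 0.85 ± 0.11, and OSMR, the receptor of oncostatin M, by 0.85 ± 0.11. HEATR5A changed by 0.82 ± 0.11, RBM12, an RNA-binding protein, by 0.81 ± 0.11 with all 5 of its probe sets up, C11orf96 by 0.79 ± 0.079, and WDR33, which recognises the polyadenylation signal of nascent transcripts, by 0.79 ± 0.092. ING3, a reader of methylated histone H3, changed by 0.76 ± 0.14, with 63.1, 32.0 and 57.7 under THZ2 and 28.1, 17.1 and 23.3 under DMSO, where the lowest treated array lay only just above the highest DMSO array. All 15 rises passed with the SJSA-1 arrays alone as well, but in only 6 of the 15 did every tested probe set of the gene lie above 0. On arrays centred on the spike-ins 8 of the 15, namely HEXIM1, NDST1, OSMR, HEATR5A, RBM12, C11orf96, WDR33 and ING3, no longer passed, while no fall among the 15 was lost.

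**Figure D2:**
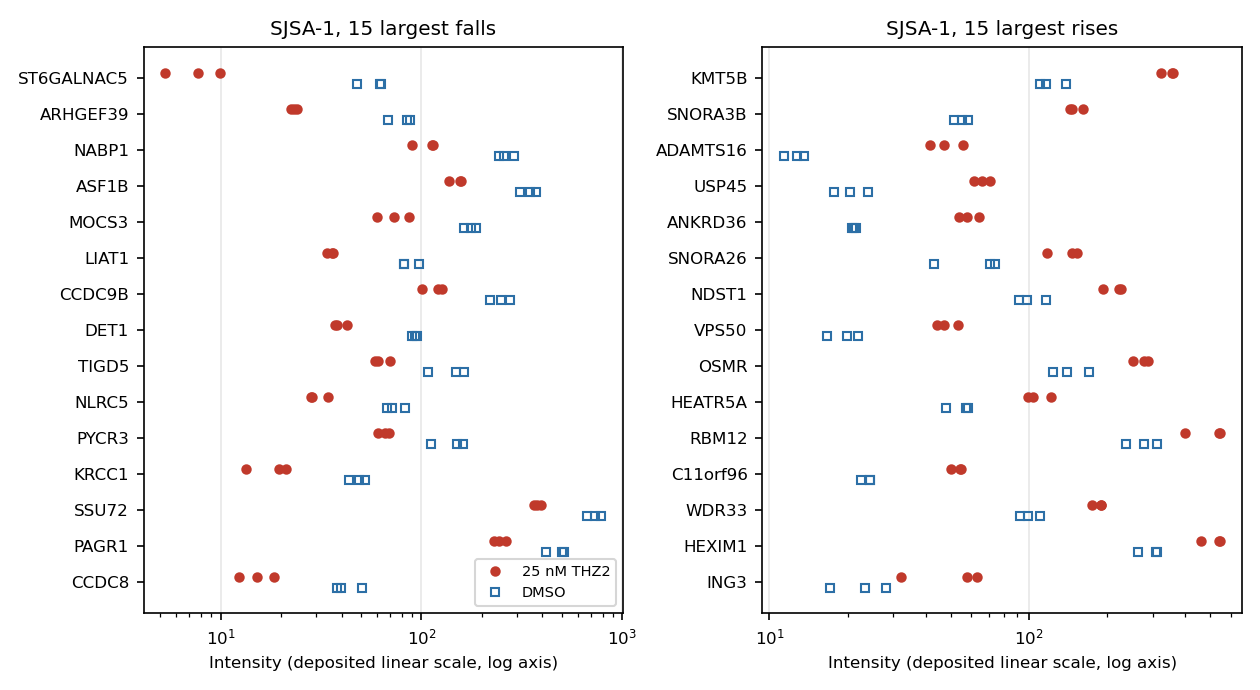
Intensity of each SJSA-1 array (horizontal, deposited linear scale on a log axis) for the 15 largest falls and the 15 largest rises, with filled circles for 25 nM THZ2 and open squares for DMSO. In every gene the 3 treated arrays lie on the same side of all 3 DMSO arrays, as the rule for naming them required, and ST6GALNAC5 shows the widest gap.

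The starts of these genes are shown to let a reader see their sequence, and promoter activity was not measured. KMT5B and USP45 are counted as rises on the probe set that represents them. Of the 30 genes, 20 matched the promoter table of RefSeq for GRCh38.p14, and the 4 largest falls and 2 largest rises among them are printed 5′ to 3′ on the strand of the gene, from 250 bases before to 50 bases after its start. Capitals mark the letters of GGGCGG, known as a GC box, of CCAAT, known as a CCAAT box, and of TATAAA, known as a TATA box. Each was searched on both strands, so a match on the other strand shows its complement, and no matches overlap in these windows. The windows are chr1:76867230-76867529 on the plus strand for ST6GALNAC5, chr2:191677886-191678185 on the plus strand for NABP1, chr19:14136540-14136839 on the minus strand for ASF1B, chr20:50958568-50958867 on the plus strand for MOCS3, chr11:68213599-68213898 on the minus strand for KMT5B and chr6:99515374-99515673 on the minus strand for USP45.
ST6GALNAC5: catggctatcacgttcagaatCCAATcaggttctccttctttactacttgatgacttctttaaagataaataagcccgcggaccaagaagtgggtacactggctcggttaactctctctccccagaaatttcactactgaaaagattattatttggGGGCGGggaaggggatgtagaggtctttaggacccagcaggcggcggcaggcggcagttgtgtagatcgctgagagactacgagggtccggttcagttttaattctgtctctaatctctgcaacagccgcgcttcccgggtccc
NABP1: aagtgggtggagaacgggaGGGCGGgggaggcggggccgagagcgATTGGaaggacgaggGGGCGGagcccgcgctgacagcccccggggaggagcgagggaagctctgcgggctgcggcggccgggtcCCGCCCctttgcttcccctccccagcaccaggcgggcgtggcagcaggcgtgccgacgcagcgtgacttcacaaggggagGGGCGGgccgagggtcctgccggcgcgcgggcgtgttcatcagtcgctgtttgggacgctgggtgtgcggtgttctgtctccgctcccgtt
ASF1B: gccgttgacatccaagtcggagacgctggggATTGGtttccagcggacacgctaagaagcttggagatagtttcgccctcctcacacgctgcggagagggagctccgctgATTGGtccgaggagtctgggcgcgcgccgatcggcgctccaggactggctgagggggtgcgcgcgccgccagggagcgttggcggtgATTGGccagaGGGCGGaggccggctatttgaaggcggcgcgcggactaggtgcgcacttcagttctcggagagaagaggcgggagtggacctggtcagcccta
MOCS3: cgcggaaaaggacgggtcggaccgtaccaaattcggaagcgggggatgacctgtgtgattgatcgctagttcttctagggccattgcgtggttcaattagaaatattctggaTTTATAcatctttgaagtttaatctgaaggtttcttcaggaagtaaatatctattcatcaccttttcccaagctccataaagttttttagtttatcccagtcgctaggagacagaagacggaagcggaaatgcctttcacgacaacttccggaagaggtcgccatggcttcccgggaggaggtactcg
KMT5B: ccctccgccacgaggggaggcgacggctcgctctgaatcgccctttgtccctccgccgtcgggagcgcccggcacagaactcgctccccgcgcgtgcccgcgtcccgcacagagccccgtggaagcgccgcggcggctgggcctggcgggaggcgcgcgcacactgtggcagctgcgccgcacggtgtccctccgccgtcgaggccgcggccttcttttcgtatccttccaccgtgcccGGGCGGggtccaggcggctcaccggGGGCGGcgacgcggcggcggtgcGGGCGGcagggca
USP45: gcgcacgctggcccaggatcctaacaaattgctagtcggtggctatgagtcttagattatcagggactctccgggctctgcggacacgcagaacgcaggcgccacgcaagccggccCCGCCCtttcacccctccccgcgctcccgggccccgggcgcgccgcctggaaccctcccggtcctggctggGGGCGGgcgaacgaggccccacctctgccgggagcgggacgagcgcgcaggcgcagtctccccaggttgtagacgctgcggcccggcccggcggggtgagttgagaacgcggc
The GC box is present in the windows of ST6GALNAC5, NABP1, ASF1B, KMT5B and USP45, the CCAAT box in those of the first 3 of these, and the TATA box letters in that of MOCS3. Of the 12929 tested genes with a printed start in RefSeq, 63.0% of windows held GGGCGG on either strand, against 68.9% of the 853 fallen and 75.1% of the 257 risen genes in it. CCAAT on either strand was found in 36.1% of all, 36.8% of fallen and 35.8% of risen windows, and TATAAA in 7.97%, 5.04% and 6.61%. A match of letters is a description of the window, and these shares were not tested.

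A gene can be read by several probe sets that lie on different parts or forms of its transcripts, and in SJSA-1 at 25 nM some of these moved in opposite directions. Of 37948 probe sets tested, 678 (1.79%) rose and 1919 (5.06%) fell. Among 9904 genes with 2 or more probe sets, 1391 had at least 1 that passed, and 58 of those (4.17%) had 1 that rose and another that fell. With the SJSA-1 arrays alone 23 genes did so, and without DMSO replicate 1 46 did, 43 of them among the 58. The genes of this paragraph were chosen after their values had been seen. DIDO1, a chromatin reader made in short and long forms, had the widest split. Probe set 11743519_at of DIDO1 was at 34.3, 25.3 and 25.8 with THZ2 and at 102, 125 and 82.1 with DMSO, a change of -1.41 ± 0.094. Probe set 11721023_a_at of DIDO1 was at 147, 148 and 145 with THZ2 and at 68.6, 63.6 and 63.6 with DMSO, a change of 1.003 ± 0.098. Neither pair of groups overlapped, and both passed in the SJSA-1 arrays alone (limma adjusted p = 3.7e-06 and 0.00034). The DIDO1 probe set 11752276_a_at held the same values as the second of these on all 6 arrays and adds nothing to it.

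KMT5B, the largest rise above, was of this kind. Probe sets 11721416_a_at and 11749764_a_at of KMT5B changed by 1.39 ± 0.096 and 1.45 ± 0.11, whereas 11739403_at, 11739402_a_at and 11752144_a_at changed by -0.46 ± 0.10, -0.46 ± 0.11 and -0.27 ± 0.076. The falls of KMT5B passed with 24 arrays but not with the SJSA-1 arrays alone (limma adjusted p = 0.059, 0.052 and 0.10), so there the gene is called as a rise only. In SLC6A6, the taurine transporter, probe set 11737622_a_at was at 145, 187 and 168 with THZ2 and 49.9, 59.7 and 62.2 with DMSO, a change of 1.32 ± 0.10, and 11721993_at, the brightest, was at 265, 234 and 242 with THZ2 and 352, 388 and 333 with DMSO, a change of -0.51 ± 0.098. THADA changed by 1.07 ± 0.096 on 11752091_a_at and by -0.61 ± 0.093 on 11735818_a_at, and both passed in the SJSA-1 arrays alone. GTF3C2, a subunit of the polymerase III factor TFIIIC, changed by 0.85 ± 0.12 on 1 probe set and by -0.58 ± 0.083 and -0.37 ± 0.095 on the others. SSU72 fell on 3 probe sets, by 0.91, 0.91 and 0.87, and changed by 0.50 ± 0.094 on another. NDST1, OSMR, HEATR5A and WDR33, named among the rises, each also had a probe set that fell, and the mean of the probe sets of OSMR gave -0.098 in place of 0.85. For such genes the direction holds for a probe set, not for the gene, and which transcript forms the probe sets read was not analysed here. At 100 and 400 nM, which share the DMSO arrays, 573 and 611 genes had probe sets in both directions, 8.10% and 7.58% of genes with any that passed.

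**Figure D3:**
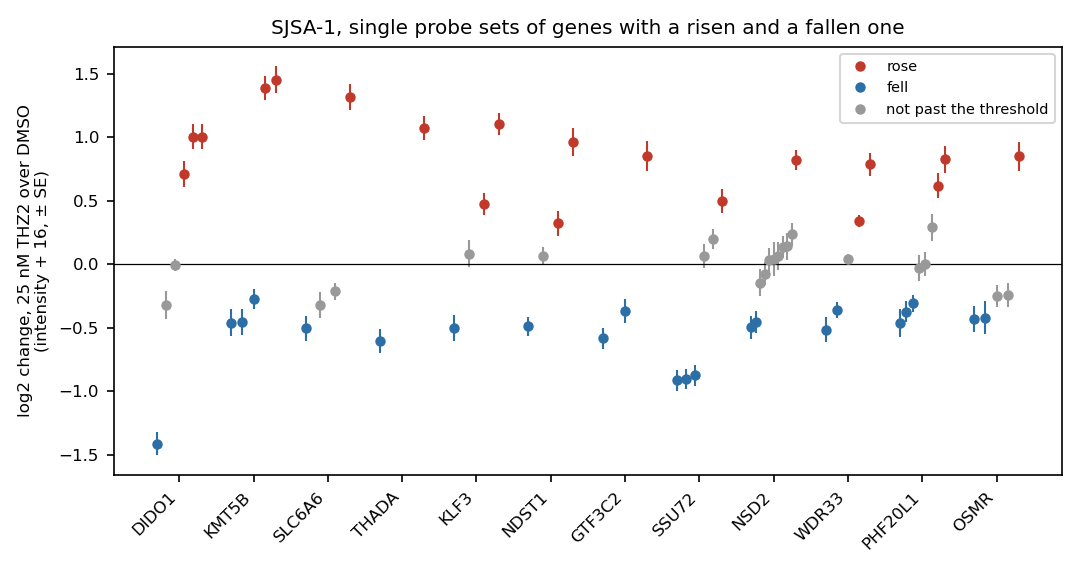
Log2 change of 25 nM THZ2 over DMSO in SJSA-1 (vertical, log2 of intensity plus 16) for every tested probe set of the 12 genes with the widest split, 1 point per probe set with its standard error. Points above and below 0 stand side by side in each gene, from 1.003 to -1.41 in DIDO1.

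The kinase that THZ2 binds and its partners did not pass the test at this dose. CDK7 was at 519, 523 and 465 with 25 nM THZ2 and at 471, 419 and 481 with DMSO, which overlap, a change of 0.13 ± 0.10 (limma adjusted p = 0.57). CCNH and MNAT1 changed by 0.15 ± 0.11 and 0.07 ± 0.087 (limma adjusted p = 0.53 and 0.75). Of the 8 TFIIH and CDK7 complex genes tested 1 fell and 0 rose, with 0 higher at an unadjusted limma p under 0.05. That gene was GTF2H1, the p62 core subunit of TFIIH, at 271, 298 and 261 with THZ2 and at 508, 419 and 407 with DMSO, a change of -0.65 ± 0.093 that passed in both models (limma adjusted p = 1.85e-05 with 24 arrays and 0.0028 with 12), and 7 of its 8 probe sets fell. CDK12 was at 189, 190 and 181 with THZ2 and at 156, 146 and 123 with DMSO, a change of 0.37 ± 0.095 that passed with 24 arrays (limma adjusted p = 0.013) and not with 12 (0.13). CDK13 changed by 0.14 ± 0.098 and did not pass. POLR2A, the catalytic subunit of RNA polymerase II, was at 276, 252 and 284 with THZ2 and at 170, 208 and 204 with DMSO, a change of 0.45 ± 0.11 with the same split between the models (limma adjusted p = 0.010 and 0.061). It was the only one of 12 polymerase II subunit genes called on 24 arrays, with 0 fallen, nor was any lower at an unadjusted limma p under 0.05.

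HEXIM1, which holds the elongation kinase P-TEFb inactive on the 7SK RNA, rose. It was at 537, 461 and 545 with THZ2 and at 311, 309 and 263 with DMSO, a change of 0.77 ± 0.11 that passed in both models (limma adjusted p = 1.12e-05 and 0.00091). The groups were well apart and all 5 probe sets of HEXIM1 rose, but the call was lost on arrays centred on the spike-ins. Its paralogue HEXIM2 went the other way, at 47.2, 50.9 and 47.2 with THZ2 and 53.8, 74.0 and 78.8 with DMSO, a change of -0.39 ± 0.11 that passed with 24 arrays only (limma adjusted p = 0.031, and 0.21 with 12). These were the only calls among 18 genes of P-TEFb, 7SK and elongation factors. Of 30 Mediator genes, whose products link enhancer-bound factors to the polymerase, 3 (10.0%) rose and 5 (16.7%) fell on 24 arrays. Of all genes 1.97% rose and 6.28% fell. MED11 fell most, by 0.67 ± 0.10, at 131, 126 and 125 with THZ2 and 193, 208 and 241 with DMSO, and it alone of the 8 passed in the SJSA-1 arrays too (limma adjusted p = 0.0034). MED7, MED22 and MED29 each changed by -0.40, MED23 by 0.38 and MED21 by 0.34. The median over the Mediator genes was -0.015, close to the 0.013 of all genes.

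Genes often studied in osteosarcoma or as targets of CDK7 inhibition mostly did not pass at 25 nM. MYC, the growth-promoting transcription factor, was at 48.2, 34.1 and 43.1 with THZ2 and at 28.8, 37.3 and 34.3 with DMSO, a change of 0.22 ± 0.10 (limma adjusted p = 0.24). RUNX2, the master factor of osteoblasts, changed by 0.08 ± 0.14, and its groups, at 88.0 to 126 with THZ2 and 93.1 to 120 with DMSO, overlapped. MCL1, the short-lived survival protein, changed by 0.09 ± 0.14. MDM2, the ligase that destroys p53, changed by 0.07 ± 0.18, CDK4, its neighbour on chromosome 12 and one of the brightest genes named, by -0.07 ± 0.057, and CDKN1A, the p53 target p21, by 0.12 ± 0.11. None of these passed, and the signs for MCL1, MDM2 and CDKN1A turned when a single array was left out. FADD, which couples death receptors to caspase 8, fell, at 714, 724 and 690 with THZ2 and 1046, 1201 and 1361 with DMSO, a change of -0.74 ± 0.14 that passed in both models (limma adjusted p = 0.00052 and 0.0055) but not on arrays centred on the spike-ins. FOSL1, an AP-1 subunit, was at 440, 357 and 437 with THZ2 and at 458, 592 and 609 with DMSO, a change of -0.41 ± 0.13 at the edge of the threshold (limma adjusted p = 0.044, and 0.17 with 12 arrays). Among 13 genes of the chromosome 12q region that is amplified in many osteosarcomas, 2 fell, METTL1, a tRNA methyltransferase, by 0.51 ± 0.12 and HMGA2, a chromatin architecture protein, by 0.30 ± 0.090, of which HMGA2 was not called in the SJSA-1 arrays alone or without DMSO replicate 1 (limma adjusted p = 0.22 and 0.17).

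Gene lists were described by their counts beside those of all genes, 1.97% risen and 6.28% fallen, and by their median. The cytokine and chemokine genes had the lowest median of the 40 lists, -0.22, though not without DMSO replicate 1, where it was -0.20 and that of the NF-kB list was lower. It stayed below 0 under each scaling tried, from -0.29 with spike-in centring to -0.19 with quantile normalization. Of 19 such genes 6 fell and 0 rose, and none was higher at an unadjusted limma p under 0.05, but only IL1B and IL1A passed in the SJSA-1 arrays alone. IL1B, an inflammatory cytokine, was at 145, 138 and 145 with THZ2 and at 228, 254 and 208 with DMSO, a change of -0.63 ± 0.092. IL6 was at 76.6, 62.2 and 55.3 with THZ2 and at 91.8, 97.0 and 89.9 with DMSO, a change of -0.44 ± 0.096, and CXCL8, a chemokine that draws neutrophils, at 3191, 3019 and 3148 with THZ2 and at 3875, 3591 and 3984 with DMSO, a change of -0.29 ± 0.083. In these 3 genes the groups did not overlap, whereas in IL1A, which fell by 0.35, they did and in CXCL3, which fell by 0.37, the highest treated array equalled the lowest DMSO array at 67.2. IL24 fell by 0.37 ± 0.086. Among 13 NF-kB subunits and inhibitors, the factors that drive many of these genes, the median was -0.16, from -0.23 to -0.13 over the scalings, with 1 fall, of NFKB2 by 0.51 ± 0.094, and 0 rises, but 4 falls and a median of -0.29 without DMSO replicate 1.

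Genes of DNA replication also lay low. Of 37 tested 6 fell (16.2%, against 6.28% of all genes) and 0 rose. None was higher at an unadjusted limma p under 0.05, and the median of -0.097 was negative under each scaling. GINS1, a subunit of the replicative helicase, was at 410, 419 and 428 with THZ2 and at 695, 755 and 662 with DMSO, a change of -0.73 ± 0.077. POLA2 and PRIM1, subunits of the polymerase that primes new strands, fell by 0.51 ± 0.085 and 0.48 ± 0.097, and GINS4, a partner of GINS1, by 0.39 ± 0.075. These 4 passed in both models, while E2F1 and CDC45, at -0.39 and -0.29, passed only with 24 arrays. Of 26 genes of homologous recombination and Fanconi repair, 3 fell, BRCA1 by 0.58 ± 0.10, RAD51C by 0.43 ± 0.095 and FANCF by 0.28 ± 0.084, with a list median of -0.10, and BRCA1 alone passed in the SJSA-1 arrays. Of 29 mitotic genes 5 fell and 0 rose (limma; 2 were higher at an unadjusted p under 0.05), but their median was 0.0087, near that of all genes and below 0 with spike-in or ribosomal centring. Without DMSO replicate 1 there were 3 rises and 5 falls. AURKB, the kinase of the chromosomal passenger complex, was at 292, 284 and 272 with THZ2 and at 333, 452 and 455 with DMSO, and fell by 0.51 ± 0.11. KNSTRN, a spindle protein, fell by 0.43 ± 0.083, and these are the 2 mitotic genes that passed in both models. Of 73 mitochondrial ribosomal protein genes 8 fell and 1 rose, with a median of -0.069, and MRPL57 fell most, by 0.47 ± 0.083. Without DMSO replicate 1 there were 14 falls and a median of -0.15, and with the SJSA-1 arrays alone 2.

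**Figure D4:**
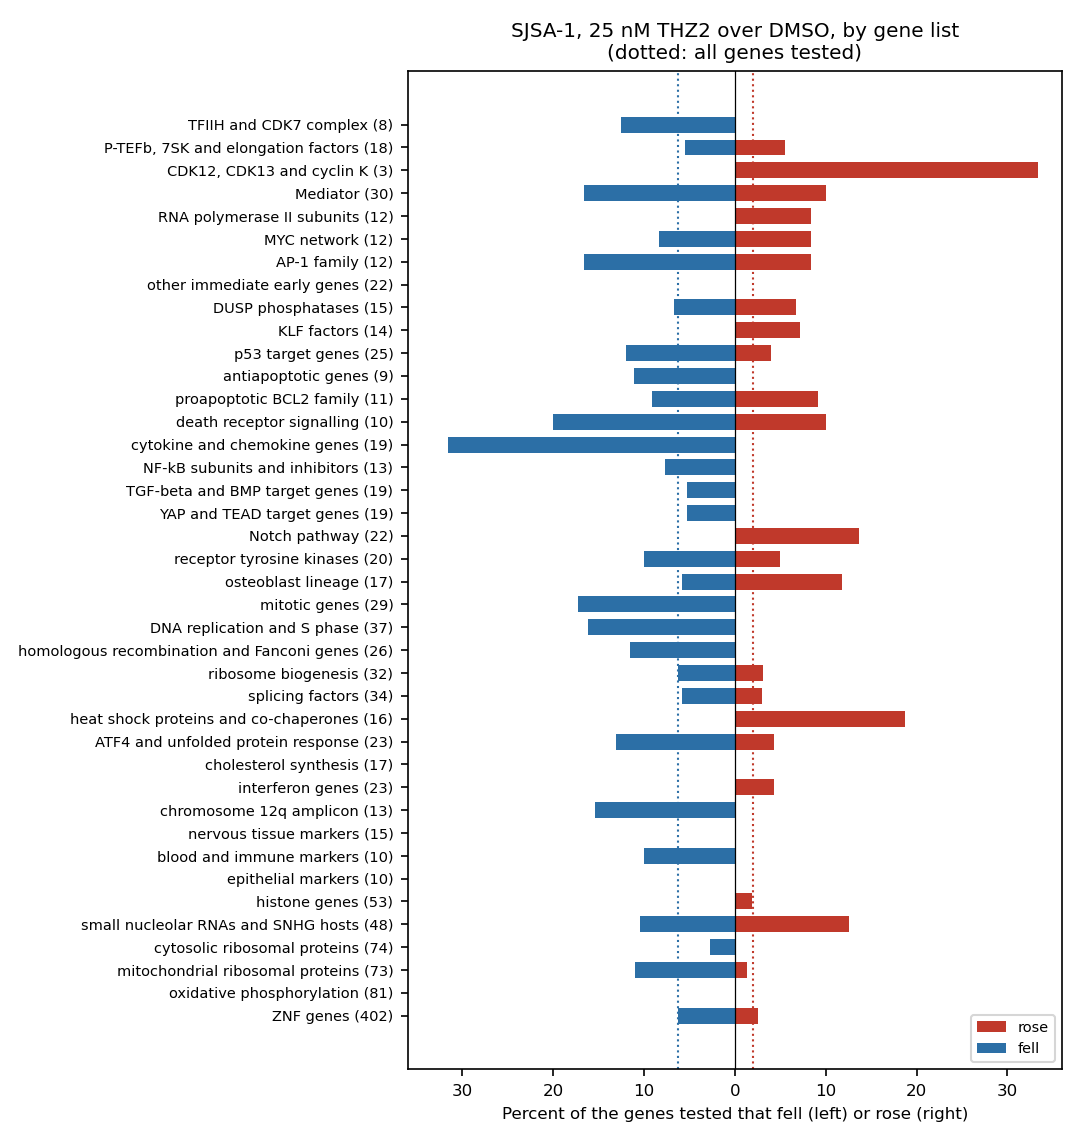
Percent of the tested genes of each list that fell (bars to the left) or rose (bars to the right) with 25 nM THZ2 over DMSO in SJSA-1 on the 24-array model, with the number tested in brackets and dotted lines at the 6.28% and 1.97% of all genes. Lists of few genes give long bars from 1 gene, as with CDK12, CDK13 and cyclin K, and the cytokine list reaches furthest to the left.

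Other lists had rises, beside the 1.97% risen and 6.28% fallen over all genes. In lists this small a single call changes the share a great deal. Of 16 heat shock proteins and co-chaperones, which keep proteins folded, 3 rose and 0 fell, nor was any lower at an unadjusted limma p under 0.05. HSPA1B, the inducible HSP70 that has a near-identical neighbour copy, was at 340, 458 and 437 with THZ2 and at 229, 345 and 261 with DMSO, a change of 0.55 ± 0.13, in which 1 DMSO array lay above the lowest treated array. CHORDC1 rose by 0.40 ± 0.11 and HSPH1 by 0.35 ± 0.11, and of the 3 only HSPA1B passed in the SJSA-1 arrays. Their list's median was 0.061, but -0.017 with spike-in centring and 0.19, with 4 rises, without DMSO replicate 1. Of 22 Notch pathway genes 3 rose and 0 fell, with 1 lower at an unadjusted limma p under 0.05. JAG1, a ligand of Notch receptors, was at 103, 85.0 and 90.5 with THZ2 and at 54.2, 47.2 and 50.6 with DMSO, a change of 0.71 ± 0.095 that passed in both models, and the Notch targets HES1 and NRARP changed by 0.40 and 0.26 and passed with 24 arrays only. Among 17 osteoblast lineage genes 2 rose, the growth factor BMP4 by 0.67 ± 0.11 and the homeobox gene MSX2 by 0.48 ± 0.099, and ATF4, needed for osteoblast maturation and for the amino acid response, fell by 0.36 ± 0.070. All 3 passed in both models. In the ATF4 and unfolded protein response list 3 of 23 genes fell, among them DDIT3, a proapoptotic target of ATF4, by 0.51 ± 0.092, and 1 rose.

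Apoptosis genes gave single calls, where 1.97% of all genes rose and 6.28% fell. BAX, which opens the outer mitochondrial membrane, fell by 0.62 ± 0.089, at 331, 311 and 329 with THZ2 and 458, 596 and 471 with DMSO, and counts both among the 25 p53 target genes, of which 3 fell and 1 rose (6 and 2 without DMSO replicate 1), and among the 11 proapoptotic BCL2 family genes, of which 1 fell and 1 rose. BCL2L2, an antiapoptotic relative, fell by 0.51 ± 0.086, while BCL2L11, the proapoptotic BIM, changed by 0.33 ± 0.091 with 8 of 13 probe sets up, on 24 arrays only. Of 15 DUSP phosphatases, which shut off MAP kinases, DUSP4 rose by 0.57 ± 0.088 in both models, at 168, 160 and 163 with THZ2 and 88.6, 122 and 106 with DMSO, and DUSP16 fell by 0.35 ± 0.11 on 24 arrays. Of 402 ZNF genes, mostly zinc finger transcription factors, 25 fell and 10 rose, which is 6.22% and 2.49% and so close to all genes. ZNF764 fell by 0.75 ± 0.098 and ZNF184 rose by 0.53 ± 0.091.

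Several lists held no call on 24 arrays. Over all genes 8.25% were called, so a small list can hold no call without differing from all genes. Of 81 oxidative phosphorylation subunits 0 rose and 0 fell, with 2 higher and 1 lower at an unadjusted limma p under 0.05, and their changes ran from -0.22 to 0.24. Of 17 cholesterol synthesis genes 0 passed, with 1 higher and 1 lower at an unadjusted limma p under 0.05. Of 22 immediate early genes outside the AP-1 family 0 passed either, with 1 higher and 1 lower at that p, though their changes spread from -0.23 to 0.49. The cytosolic ribosomal proteins had a median of 0.00, and of 74 only 2 fell, RPL27A by 0.50 ± 0.082 and RPL22L1 by 0.42 ± 0.10, against 5 without DMSO replicate 1. Which form of the RPL27A transcript its probe set reads was not tested. Of 53 histone genes 1 rose, H2AC8, by 0.37 ± 0.088, whose near copies a probe set may also read. The remaining lists stood as follows. Single falls and no rise were seen in antiapoptotic genes (9 tested), TGF-beta and BMP target genes (19) and YAP and TEAD target genes (19). The AP-1 family had 1 rise, of ATF3, and 2 falls among 12, the MYC network 1 of each among 12, the KLF factors 1 rise among 14, interferon genes 1 rise among 23, receptor tyrosine kinases 1 rise and 2 falls among 20, and death receptor genes 1 rise and 2 falls among 10. Ribosome biogenesis genes had 1 rise and 2 falls among 32, and splicing factors 1 rise and 2 falls among 34. CDK12 was the only call among CDK12, CDK13 and cyclin K. Among marker genes of other tissues, 0 of 15 nervous tissue genes passed (1 higher and 0 lower at an unadjusted limma p under 0.05), 0 of 10 epithelial genes passed (0 at that p), and 1 of 10 blood and immune genes fell.

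Small nucleolar RNAs are cut from introns of host genes and guide chemical changes of ribosomal RNA, so host and small RNA come from the same primary transcript. The list of 48 such RNAs and SNHG host genes had 6 rises and 5 falls, and after these values were seen it was split. Of 39 small nucleolar and Cajal body RNAs 6 rose and 0 fell, 4 of them also in the SJSA-1 arrays, with a median of 0.12, and none was lower at an unadjusted limma p under 0.05. Of 9 SNHG genes 0 rose and 5 fell, none of which passed in the SJSA-1 arrays alone. SNORA3B changed by 1.23 ± 0.088, while RPL27A, whose intron holds it, was at 104, 102 and 107 with THZ2 and at 154, 169 and 141 with DMSO, a change of -0.50 ± 0.082. In this pair, 1 of 35 with a tested host, the small RNA and its host stood clear of their DMSO arrays on opposite sides. The RPL27A reading is dim beside another ribosomal protein gene, FAU, at 9902 ± 142 with THZ2 and 10047 ± 496 with DMSO. Whether it stands for the mature RPL27A transcript was not tested. In another, SNORD17 changed by 0.032 ± 0.14 and did not pass, while its host SNX5 rose by 0.63 ± 0.084. SNORA65 changed by 0.72 ± 0.15 and its host RPL12 by 0.037 ± 0.035, SNORA84 by 0.45 ± 0.11 and its host IARS1 by -0.026 ± 0.080, and SNORA15 by 0.29 ± 0.066 and its host CCT6A by -0.036 ± 0.077. SNHG8 and SNHG7, longer host transcripts, fell by 0.47 ± 0.10 and 0.45 ± 0.11. Whether these probe sets read the mature small RNA or an unprocessed intron was not tested, and some small nucleolar RNAs have similar copies.

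Some genes start next to another gene on the opposite strand, and MOCS3 is one of these, since in RefSeq the start of DPM1, an enzyme of mannose transfer, lies within 1000 bases of its own. MOCS3 fell, as given above, while DPM1 was at 1581 ± 133 with THZ2 and 1509 ± 238 with DMSO, a change of 0.076 ± 0.10. DNAJC30, a mitochondrial chaperone, fell by 0.82 ± 0.12, at 137 ± 15.4 with THZ2 and 258 ± 55.8 with DMSO, and its neighbour BUD23, a methyltransferase of ribosomal RNA, changed by 0.052 ± 0.079. B3GALT6, which builds the linker of proteoglycans, fell by 0.80 ± 0.10, while SDF4 changed by 0.048 ± 0.089, and ISCA2, an iron-sulfur assembly protein, fell by 0.75 ± 0.11, while NPC2, a lysosomal cholesterol carrier, changed by 0.081 ± 0.063. PPP1R10 changed by -0.89 ± 0.11, and its neighbour MRPS18B by -0.19 ± 0.094. In these pairs 1 partner fell and the other did not pass the test. This grouping was made after values had been seen and was not tested. Of the 853 fallen genes with a start in the table, 259 (30.4%) had such a neighbour, against 63 of 257 risen genes (24.5%) and 20.5% of all 12929. The share depends on brightness, and among the brightest genes, the upper of 3 classes of intensity, it was 30.6% of fallen genes and 26.7% of all, in the middle class 31.8% and 21.2%, and in the dimmest 24.6% and 12.7%. Of genes that fell with the SJSA-1 arrays alone it was 33.6%. Of 171 fallen genes whose neighbour was itself tested, 16 had a neighbour that fell, 4 one that rose and 151 one that was not called. A pair in which both genes fell is counted from both sides among the 16. The median change of the neighbours of the 171 was -0.062, against 0.013 over all genes. Of all genes tested 6.28% fell and 1.97% rose, so a neighbour without a call is the usual case for any gene. Pairs that fell together included C2orf74-DT, at -0.84 ± 0.085, with C2orf74, at -0.39 ± 0.10, and SKA3, at -0.57 ± 0.092, with MRPL57, at -0.47 ± 0.083. Pairs that parted included MGME1, at -0.33 ± 0.086, with SNX5, at 0.63 ± 0.084.

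The next doses were measured on arrays of their own but against the same DMSO arrays, so their values are set side by side. Some genes, on the probe set that represents them, changed at 25 nM by about as much as at 100 nM, or more. KMT5B changed by 1.39, 1.39 and -0.06 at 25, 100 and 400 nM, and ST6GALNAC5 by -1.64, -1.23 and -0.57. ASF1B changed by -1.11, -1.18 and -0.57 and SSU72 by -0.91, -0.52 and 0.01. Other probe sets of KMT5B and SSU72 ran otherwise. Probe set 11739403_at of KMT5B gave -0.46, -2.42 and -2.41, and 11763451_s_at of SSU72 gave 0.50, 0.62 and 0.33. Others changed less at 25 nM than at the higher doses. NABP1 changed by -1.20, -2.79 and -3.05, MOCS3 by -1.11, -2.77 and -2.94, and FADD by -0.74, -3.62 and -4.29. HEXIM1 changed by 0.77, 0.45 and -0.91 on its brightest probe set. Its sign at 400 nM differed between probe sets, since 11721002_s_at of HEXIM1 gave 1.57, 1.998 and 0.63 and 11721001_at gave 1.37, 1.83 and 0.46. CDK7 and MCL1, which did not pass at 25 nM, changed by 0.13, -0.97 and -1.78 and by 0.09, -1.35 and -2.90. Between 100 and 25 nM, 3001 genes (18.5%) were higher and 3735 (23.1%) lower at 100 nM (limma on 24 arrays). That split depended on the scaling, with 4985 higher and 3385 lower after median centring, 1580 and 4215 after ribosomal centring, and 47 and 3872 after spike-in centring. The largest such steps down were those of FADD, ZBED5, ZMIZ1 and CENPA. CENPA, the histone of the centromere, was at 962, 891 and 976 with 25 nM and at 942, 942 and 976 with DMSO, a change of -0.02 ± 0.10, and then of -2.46 at 100 nM. The largest steps up were those of SNORA65, C11orf96, PANX1 and SAT1, the enzyme that starts polyamine breakdown, which changed by 0.40, 2.36 and 1.63 over the doses.

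The same dose in U2-OS, with DMSO arrays of its own, moved far fewer genes past the threshold, 4 up (0.0247%) and 9 down (0.0556%). U2-OS arrays scattered less than SJSA-1 arrays, so the model on 24 arrays takes too large a spread for U2-OS. That can widen the gap between the counts of the lines, and the U2-OS arrays were not fitted alone. The difference of the 25 nM effects, SJSA-1 minus U2-OS, passed for 177 genes, 29 up (0.179%) and 148 down (0.915%) (limma on 24 arrays). No gene passed on arrays centred on the spike-ins, where 174 had an unadjusted limma p under 0.05. That centring adds the spread of the spike-ins to every gene, as described above. ST6GALNAC5 changed by -1.64 in SJSA-1 and by -0.21 ± 0.094 in U2-OS, a difference of -1.43 ± 0.13 (limma adjusted p = 4.58e-07). The other largest differences down were those of NABP1, at -1.07 ± 0.13, LIAT1, at -0.95 ± 0.11, and MOCS3, at -0.93 ± 0.15. The largest up were those of SNORA3B, at 1.17 ± 0.12, KMT5B, at 1.04 ± 0.13, SNORA26, at 1.02 ± 0.19, and USP45, at 0.97 ± 0.13. The 30 largest changes were chosen on SJSA-1, whose change enters the difference, so that 23 of the 44 named genes passed is a description. HEXIM1 changed by 0.77 in SJSA-1 and by 0.36 ± 0.11 in U2-OS, and CDK12 by 0.37 and 0.36 ± 0.095, and neither difference passed (limma adjusted p = 0.27 and 0.99). For CDK12 the difference was 0.011 ± 0.13. Of the 15 largest falls in SJSA-1, all 15 were lower in U2-OS too, 8 at an unadjusted limma p under 0.05, and 3 passed there. On the probe set that represents each gene none of the 15 largest rises passed in U2-OS, by limma on 24 arrays. Of these rises 14 were higher there, and 9 had an unadjusted limma p under 0.05. Of the 5 probe sets of HEXIM1, 3 passed in U2-OS, with changes of 0.56, 0.67 and 0.68 (limma adjusted p = 0.0497, 0.028 and 0.017). The lines were normalized apart and levels are not compared between them.

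**Figure D5:**
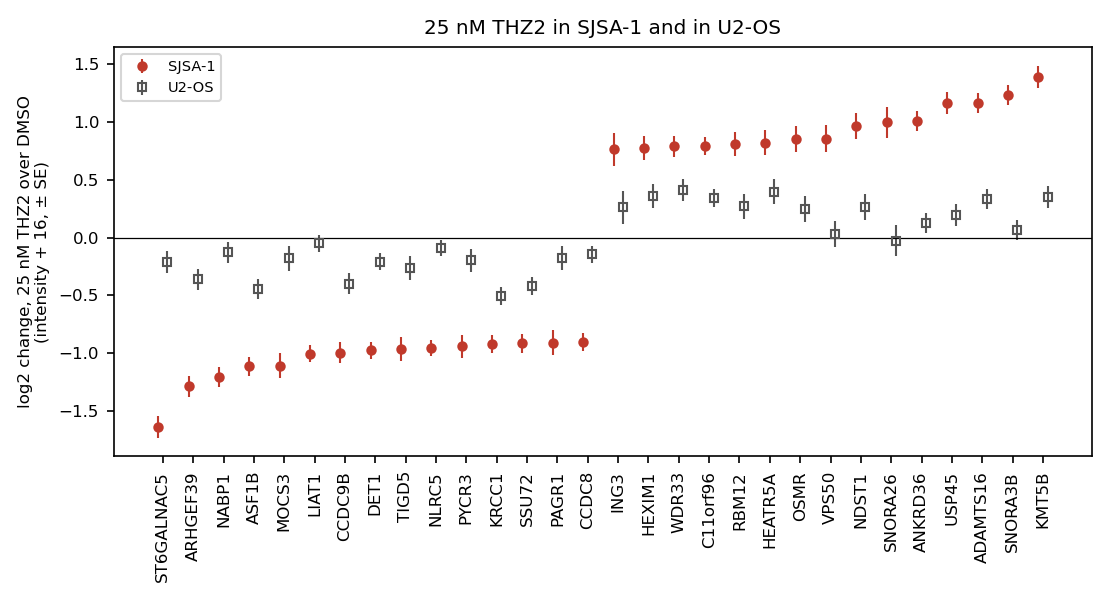
Log2 change of 25 nM THZ2 over DMSO (vertical, log2 of intensity plus 16, with standard errors) of the 15 largest falls and 15 largest rises of SJSA-1, filled circles for SJSA-1 and open squares for U2-OS. The U2-OS values lie nearer to 0 than the SJSA-1 values, by which the genes were chosen, with ST6GALNAC5 at -1.64 and -0.21.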

How the data were processed

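RNA of 24 samples was measured on PrimeView arrays, and samples were grouped by their titles. Each deposited table gives a linear intensity for every probe set, and per the submitters' processing notes MAS5 and RMA were used by the authors, with no version or role given. In SJSA-1 every log2 of a deposited intensity was a whole hundredth. Of 49372 probe sets 44988 named 1 gene and were used, each gene by its brightest probe set over all 24 arrays, treated ones included. A gene was tested if at least 1 group averaged 12.72 or more, the 30th percentile of intensity. Group means of log2(intensity + 16) over all 24 arrays were fitted with limma 3.58.1 in R 4.3.3 with an intensity trend, and p-values were adjusted by Benjamini-Hochberg over 16178 genes (threshold 0.05). The fit was checked on simulated data. Because SJSA-1 arrays scattered more than U2-OS arrays, the fit on the 12 SJSA-1 arrays is given beside it. An exact permutation test of 3 against 3 cannot go below 0.1. Of the 6 arrays any 2 shared between 1.75% and 3.10% of identical probe set values, and none was a copy. Same-numbered arrays of the 25 nM and DMSO groups had deviations correlated at 0.084 to 0.42, and differently numbered ones at -0.43 to 0.27. Over all SJSA-1 groups the 18 same-numbered pairs ran from -0.63 to 0.42, so the numbers were not taken to pair arrays. Whether same-numbered arrays of the 25 nM and DMSO groups share a batch was not tested. Named genes are 15 fixed ones, the 15 largest falls and rises past the threshold with all treated arrays outside the DMSO range, up to 6 called members and up to 3 others of each of 40 lists, and the 4 largest line differences and steps each way. A bound on a fold sets arrays under 12.72 to that value. The members and lists were chosen with earlier results of these data known. The alternatives tried were 20: pseudocount, scaling, filter, mean of probe sets, no trend, fewer arrays, a replicate block, leaving out each array, and, added after seeing the data, the 12 SJSA-1 arrays without DMSO replicate 1.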

Additional observations from a re-analysis of the deposited data

Results flagged for a closer look

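The effect of 25 nM THZ2 over DMSO differed between SJSA-1 and U2-OS, by the test of the difference itself (limma on 24 arrays, adjusted over all genes), in 23 of the 44 named genes. Values are the log2 change in SJSA-1 minus that in U2-OS, with 3 arrays per group. Among genes that fell in SJSA-1 the difference was, in order of the SJSA-1 change, ST6GALNAC5 -1.43, ARHGEF39 -0.92, NABP1 -1.07, ASF1B -0.67, MOCS3 -0.93, LIAT1 -0.95, CCDC9B -0.60, DET1 -0.77, TIGD5 -0.70, NLRC5 -0.86, PYCR3 -0.74, SSU72 -0.50, PAGR1 -0.73 and CCDC8 -0.76. Among genes that rose in SJSA-1 it was KMT5B 1.04, SNORA3B 1.17, ADAMTS16 0.83, USP45 0.97, ANKRD36 0.88, SNORA26 1.02, NDST1 0.70, VPS50 0.83 and C11orf96 0.45. The genes were named for their change in SJSA-1, which is a part of the difference. On arrays centred on the spike-ins no gene passed this test, and 174 had an unadjusted limma p under 0.05. KMT5B, NDST1 and SSU72 hold for the probe set that represents them, since other probe sets of these genes moved the other way in SJSA-1. ADAMTS16 and USP45 also hold for that probe set only, since the other probe set of each did not pass in SJSA-1.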

How the results depend on the processing

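The count of 1335 changed genes stayed within 1.5 times under other pseudocounts, filters, median or ribosomal centring, quantile normalization, the mean of probe sets and no trend. It was 103 with spike-in centring, 569 with the 12 SJSA-1 arrays, 539 with the 6 arrays compared and 638 with the 12 arrays without DMSO replicate 1, an alternative added after seeing the data. Leaving out 1 array gave 910 to 1885, the highest without DMSO replicate 1. The 11 genes changed by 2-fold or more were 43 with no pseudocount, 1 with 64, 7 with the mean of probe sets, 17 with the 12 arrays without DMSO replicate 1, and 10 to 17 with 1 array left out, the highest without DMSO replicate 1. The 177 line differences were 104 with no pseudocount, 100 with quantile normalization, 0 with spike-in centring (limma; 174 at an unadjusted p under 0.05), and 82 (without DMSO replicate 2) to 323 (without DMSO replicate 1) with 1 array left out, among them 84 without 25 nM replicate 3 and 113 without replicate 2. The 6736 steps to 100 nM were 3919 with spike-in centring, and 5724 to 7016 with 1 array left out. Of 34 genes past the threshold among 44 followed, spike-in centring lost 12 (CDK12, POLR2A, HEXIM1, FOSL1, FADD, NDST1, OSMR, HEATR5A, RBM12, C11orf96, WDR33 and ING3), the mean of probe sets CDK12, HEATR5A and WDR33, and the 12 SJSA-1 arrays CDK12, POLR2A and FOSL1. Of the 40 list medians 29 moved by more than the spread over the 25 nM arrays with spike-in centring and 11 without DMSO replicate 1. Signs turned for OSMR, at -0.098 with the mean of probe sets, and for genes never called: MNAT1 at -0.0047 and MDM2 at -0.0100 with spike-in centring, and MCL1 at -0.033 when probe sets were averaged. With single arrays left out MCL1 ran from -0.018 to 0.16, MDM2 from -0.060 to 0.25, with -0.023 lacking DMSO replicate 2, and CDKN1A from -0.024 to 0.21. CDKN1A was also at -0.024 on 12 arrays lacking DMSO replicate 1. The causes were not tested. With the replicate number as a block, which same-numbered arrays over all SJSA-1 groups do not justify, 1392 genes passed, 343 up and 1049 down. Of the 44 genes followed across the alternatives FOSL1 alone was lost there. Dim genes near the filter intensity are limited by background.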
